A study of Mus musculus with 2 samples.

Results

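Intronic peaks over 10 kb from start sites were the peaks of a Notch1 chromatin profile that lay over a protein-coding gene, touched no exon of a protein-coding gene, and had their nearer edge more than 10 kb from every start site of a protein-coding gene. By that rule 1093 of the 5910 peaks on nuclear chromosomes (18.5%) were taken, and they are called distal intronic peaks here. The rule used position alone, on mouse build mm10 with the GENCODE M21 annotation. Starts of every transcript of a protein-coding gene were counted, and with only those of transcripts themselves typed protein-coding the class would hold 1358 peaks. The profile came from gamma delta T cells, lymphocytes whose receptor pairs a gamma with a delta chain. They were primary thymic cells of C57BL/6 mice, wild type in genotype and aged 0 to 3 days after birth. Chromatin was fixed with 0.5% formaldehyde for 5 min and precipitated with rabbit monoclonal antibody D1E11 against Notch1, and a second library was input chromatin of the same kind of cell without antibody. Each was 1 library amplified with 18 PCR cycles, with no replicate, and the peak list of the Notch1 library is described. Intervals and p-values below therefore describe peaks of 1 library and say nothing of how mice or preparations would vary. The labels do not say how the cells were sorted or how many mice were pooled, and a peak list measures no expression, so the labelled cell type could not be checked against its markers.

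Notch1 is a surface receptor that is cut when it binds a ligand on a neighbouring cell. The freed intracellular domain enters the nucleus, where it joins the DNA-binding protein RBPJ and a Mastermind co-activator (Maml1, Maml2 or Maml3) and switches on genes. In developing T cells much of this activity is known from enhancers, stretches of DNA that can act on a promoter from far away and often lie within introns. An intron that holds an enhancer need not belong to the gene it acts on, and in this text the gene that a peak lies over is called its host, with no claim that it is the target.

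Central sequence is printed for 6 distal intronic peaks over T cell genes, picked by score and not as typical of the class. Each peak was the highest-scoring one with under 20% soft-masked (repeat) sequence on 1 of 6 gene lists: Maml2 for the Notch pathway, Lef1 for Notch targets, Tcf7 for the interleukin-17 program, Stat4 for the interferon-gamma program, Bach2 for T lineage regulators and Cd247 for T cell receptor signalling. The central 200 bp are printed on the plus strand of mm10. Capitals mark, on either strand, the RBPJ core TGGGAA, a longer RBPJ consensus (CGTGGGAA, TGTGGGAA, CGTGAGAA or TGTGAGAA, the first pair of which contain the core), the ETS strings CAGGAAG and CCGGAAG, the RUNX strings TGTGGTT and TGCGGTT, and the E-box strings CAGCTG and CAGGTG of E proteins.
Maml2, chr9:13546924-13547123: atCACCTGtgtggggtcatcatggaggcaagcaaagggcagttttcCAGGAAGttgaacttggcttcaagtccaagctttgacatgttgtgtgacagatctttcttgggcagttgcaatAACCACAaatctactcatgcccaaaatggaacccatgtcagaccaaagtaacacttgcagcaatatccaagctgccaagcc
Lef1, chr3:131157541-131157740: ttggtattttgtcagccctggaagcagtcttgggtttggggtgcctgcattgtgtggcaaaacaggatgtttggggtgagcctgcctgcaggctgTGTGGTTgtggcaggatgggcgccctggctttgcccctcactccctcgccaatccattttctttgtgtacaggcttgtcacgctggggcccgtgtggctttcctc
Tcf7, chr11:52265983-52266182: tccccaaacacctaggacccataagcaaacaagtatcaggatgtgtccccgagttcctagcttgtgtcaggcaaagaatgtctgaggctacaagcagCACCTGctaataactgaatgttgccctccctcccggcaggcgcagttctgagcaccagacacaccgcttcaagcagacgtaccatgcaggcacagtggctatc
Stat4, chr1:52034995-52035194: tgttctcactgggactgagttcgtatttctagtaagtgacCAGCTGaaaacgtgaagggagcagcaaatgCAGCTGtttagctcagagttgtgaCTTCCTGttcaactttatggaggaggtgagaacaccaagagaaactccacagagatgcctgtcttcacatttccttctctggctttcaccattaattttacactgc
Bach2, chr4:32258259-32258458: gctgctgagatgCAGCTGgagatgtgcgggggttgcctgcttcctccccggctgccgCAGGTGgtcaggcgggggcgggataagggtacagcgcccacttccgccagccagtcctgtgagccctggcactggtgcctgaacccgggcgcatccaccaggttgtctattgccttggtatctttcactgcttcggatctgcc
Cd247, chr1:165822234-165822433: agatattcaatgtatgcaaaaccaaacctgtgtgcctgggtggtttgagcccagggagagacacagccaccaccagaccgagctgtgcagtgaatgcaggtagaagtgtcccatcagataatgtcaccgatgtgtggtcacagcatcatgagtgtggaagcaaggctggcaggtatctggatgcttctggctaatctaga

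None of these 6 central windows held an RBPJ core or the longer consensus. The Maml2 window held 1 ETS, 1 E-box and 1 RUNX string, the Stat4 window 1 ETS and 2 E-box strings, and the Bach2 window 2 E-box strings. The Lef1 window held 1 RUNX string, the Tcf7 window 1 E-box string, and the Cd247 window held 0 of the marked strings. A match is a run of letters and not a binding site, and a window without one says nothing about the factor.

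A further 4 peaks are printed because they had the highest scores among the distal intronic peaks with the longer RBPJ consensus and under 20% soft-masked sequence. The Atrnl1 peak was 155 bp wide and is printed whole, and the others are central 200 bp, with the same capitals.
St8sia1, chr6:142917392-142917591: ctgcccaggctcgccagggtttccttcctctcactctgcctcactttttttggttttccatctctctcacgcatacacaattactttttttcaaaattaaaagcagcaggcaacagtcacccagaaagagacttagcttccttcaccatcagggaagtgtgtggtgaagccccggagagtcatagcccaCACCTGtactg
Atrnl1, chr19:58059065-58059219: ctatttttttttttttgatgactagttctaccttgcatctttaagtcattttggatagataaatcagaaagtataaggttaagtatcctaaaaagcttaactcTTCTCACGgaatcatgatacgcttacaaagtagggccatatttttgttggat
Lrrtm4, chr6:80763125-80763324: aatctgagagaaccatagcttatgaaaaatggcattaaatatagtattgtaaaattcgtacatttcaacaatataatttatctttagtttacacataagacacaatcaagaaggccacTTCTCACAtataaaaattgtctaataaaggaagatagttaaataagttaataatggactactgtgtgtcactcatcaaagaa
Atg10, chr13:91091989-91092188: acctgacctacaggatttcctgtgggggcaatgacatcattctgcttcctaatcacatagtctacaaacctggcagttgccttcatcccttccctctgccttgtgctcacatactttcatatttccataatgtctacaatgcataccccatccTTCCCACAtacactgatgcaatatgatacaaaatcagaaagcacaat

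The Atrnl1, Lrrtm4 and Atg10 windows each held 1 longer consensus, and the one in Atg10 included the core. In St8sia1 the longer consensus lay in the 903 bp peak but outside its centre. The Atrnl1 and Lrrtm4 peaks were narrow and AT-rich, 155 and 202 bp wide with 31.0% and 27.7% GC, and lay 395247 and 743481 bp from a start. Atg10 encodes an enzyme of autophagy, and its peak was 651 bp wide with 38.9% GC, 33196 bp from a start.

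The peaks were spread along the length of their hosts. Sequence that met the rule covered 596 Mb, 21.9% of the nuclear chromosomes, and held 1.83 peaks per Mb. Their distance to the nearest start had a median of 31.7 kb, with 335 peaks (30.7%) within 20 kb and 179 (16.4%) over 100 kb away. The nearest start belonged to a host for 950 peaks (86.9%) and to another gene for 143 (13.1%). Along the host from its start to its end, 4 successive stretches of equal length held 226, 327, 302 and 238 peaks. The rule leaves out exons and sequence near starts, and how much sequence it left in each stretch was not measured. These counts therefore do not show whether peaks per length of such sequence differed between the stretches. Of 1004 peaks in an intron of the transcript used for numbering, 267 (26.6%) were in the first intron, and first introns made up 22.3% of such sequence. At the border of the rule, a peak in Anxa6 of score 703.89 and one in Phc1 of score 636.03 lay just inside, each 10026 bp from a start. Just outside were a peak in Neo1 of score 689.33 at 9972 bp and one in Lsm1 of score 651.12 at 9965 bp. Non-coding genes were not part of the rule, and 29 of the peaks lay within 1 kb of a start of one.

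Taken once per peak, so that a gene with several peaks counts several times, host length had a median of 187 kb. Taken once per gene, the median was 52.3 kb for the 9481 protein-coding genes that had any sequence meeting the rule. Of those 9481 genes, 860 (9.07%) held at least 1 distal intronic peak. The count was 1 peak in 686 hosts, 2 in 119, 3 in 36 and 4 or more in 19. The gene model Gm20388 held 12, but it is 4435 kb long with 71 other protein-coding genes inside it, so its peaks are shared with other hosts. Among models with fewer than 5 other genes inside, Rad51b and Pde4d held 6 each, and Bach2 and Tox held 5 each. A further 13 such models held 4 each, and the 6 with the highest single score among them were Ppp1r16b, Hivep2, Cd247, Myo16, Kansl1 and Atg10. The other 7 were Myo1e, Dlg2, Epha6, Mdga2, Ets1, Runx1 and Rora.

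The first 10 of these genes differed widely in how densely the peaks lay. Cd247, which encodes the zeta signalling chain of the T cell receptor complex, held 80.9 peaks per Mb of sequence meeting the rule, and Ppp1r16b, which encodes a regulatory subunit of a phosphatase, held 67.5. Bach2 and Tox, a repressor and an HMG-box protein of T cell development, held 18.8 and 18.1. In Pde4d, a phosphodiesterase gene of 1504 kb, the 6 peaks came to 4.78 per Mb. Rad51b, a gene of DNA repair, held 12.4 per Mb, with scores from 563.97 to 1057.8.

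**Figure D1:**
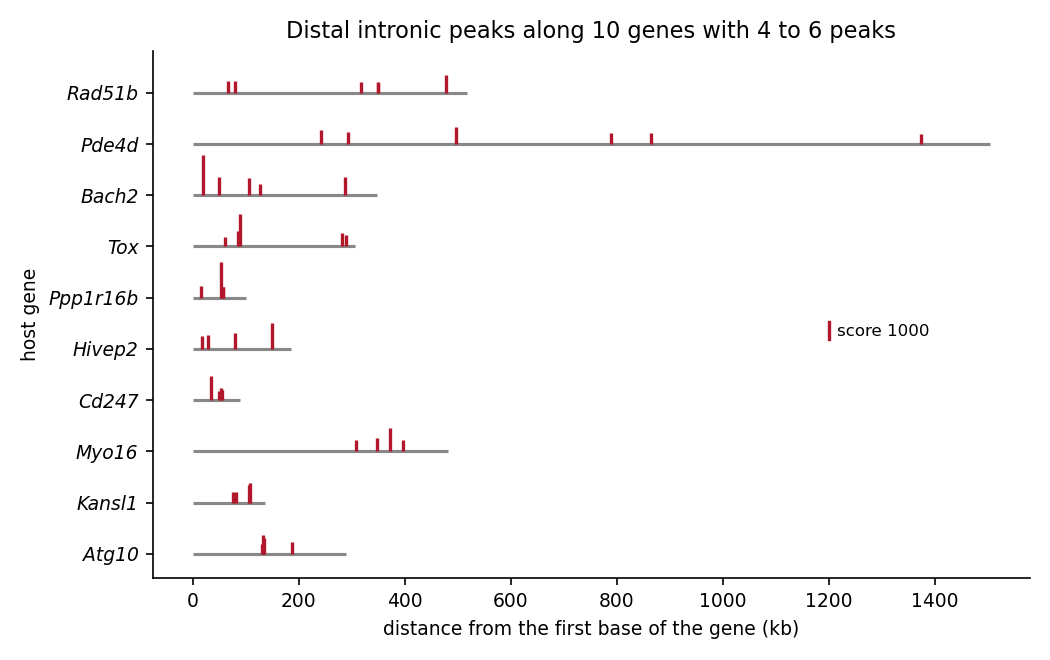
Distal intronic peaks along 10 genes, the 4 with 5 or 6 peaks and the 6 of highest score among the 13 tied at 4, with distance from the first base of the gene in kb on the x axis. Each grey line is a gene, each red bar a peak, and bar height is proportional to the deposited score (scale bar, 1000). The tallest bar in Bach2 (score 2347.5) stands near the start of the gene, while the 4 peaks of Myo16 lie in its later part.

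In Bach2 the 5 peaks had scores of 2347.5, 1092.5, 1008.4, 643.93 and 1060.6 in order along the gene. The first was 596 bp wide and 10297 bp from the nearest start, and the last, 24424 bp from a start, carried the longer RBPJ consensus. In Tox the scores were 582.89, 879.56 and 1882.1 in the first intron and 796.88 and 675.18 in the sixth. Its highest peak was 799 bp wide and 88033 bp from a start. The 4 peaks of Cd247 were in its first intron, with scores of 1399.9, 561.78, 700.99 and 579.69. Hivep2, a zinc finger gene, had scores of 763.81, 793.61, 942.49 and 1493.1 from its start onward. In each of these 4 genes 1 peak scored well above the others, and with 1 library no error can be given for that gap.

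The number of peaks per length of intron varied between groups of genes. For 13 gene lists the number of genes with a distal intronic peak was set beside the 9.07% of all genes with such sequence, and peaks per Mb beside 1.83 for all such sequence. No set test was made, and the intervals are exact Poisson 95% intervals that cover counting error only. They take peaks as independent and make no allowance for several peaks in the same gene. The 7 lists on Notch, gamma delta programs, T lineage, T cell receptor and cytokine genes had 86 peaks in 48 genes between them, 18 of the peaks on more than 1 list.

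Regulators of the T lineage, transcription factors that set or hold T cell identity, had 38 peaks in 17 of 36 genes. That came to 9.02 peaks per Mb (6.39 to 12.4), 4.92 times the density of all such intron. After Bach2 and Tox the highest-scoring hosts were Ikzf1, Lef1, Fli1, Cux1, Tcf7 and Zbtb20. Ikzf1, which encodes Ikaros, had a peak 865 bp wide of score 1646 lying 39295 bp from a start and another of score 841.99. Lef1, a partner of beta-catenin, had 1 of score 1294.2 at 43614 bp. Fli1, an ETS factor, had 2 of scores 1276.3 and 745. Cux1, a homeobox gene, had 2 of scores 1095.6 and 638.44, and Zbtb20, a zinc finger repressor, had 1 of score 821.36. Runx1, a factor that acts throughout blood development, held 4, of scores 737.74, 677.23, 607.76 and 510.99, and Ets1 held 4, of scores 782.05, 648.18, 645.17 and 621.91. The other 19 genes held none, among them Gata3, Bcl11b, Satb1, Myb and Runx3.

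**Figure D2:**
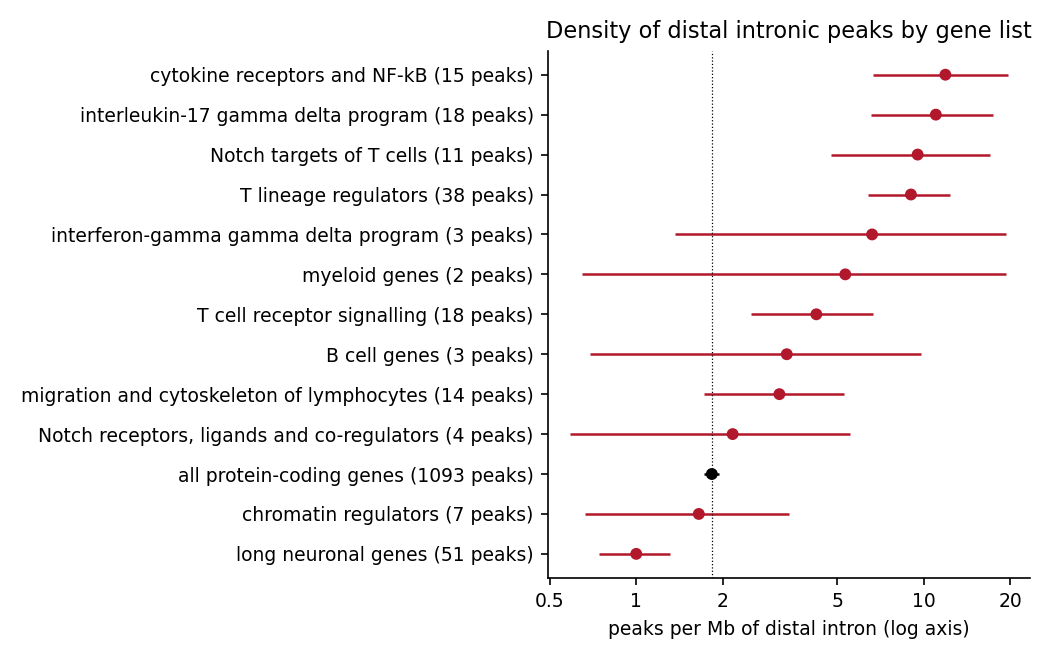
Distal intronic peaks per Mb of sequence meeting the rule, on a log axis, for 12 gene lists with at least 1 peak and for all protein-coding genes (black, 1.83 per Mb, dotted line). Points are densities and bars exact Poisson 95% intervals. The cytokine, interleukin-17, Notch target and T lineage lists lie between 9.02 and 11.9 per Mb, and long neuronal genes at 1.0.

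Cytokine receptors and NF-kB genes had 15 peaks in 9 of 41 genes, or 11.9 per Mb (6.66 to 19.6). Tnfrsf1b, a receptor for tumour necrosis factor, had peaks of scores 1316.1 and 621, and Il6ra, a subunit of the interleukin-6 receptor, had 1 of score 1218. Ski, a repressor of TGF-beta signalling, had 3 peaks of scores 1147.2, 946.54 and 726.49 within 9.82 kb. Tgfbr2, a TGF-beta receptor subunit, had scores of 852.55 and 797.05, and Smad3, its signal carrier, 822.41. Il1r1, an interleukin-1 receptor gene, had 1 of score 736.02. Stat4, which carries interleukin-12 signals, had scores of 719.13 and 684.58.

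Genes of the interleukin-17 gamma delta program had 18 peaks in 10 of 26 genes, or 11.0 per Mb (6.53 to 17.4). Zbtb16, which encodes PLZF, held peaks of scores 835.29 and 779.9, and the first of them, 110366 bp from a start, contained 3 RBPJ cores. Sox13, a fate regulator of interleukin-17 producing gamma delta cells, held 1 of score 828.13, 11506 bp from a start. Tcf7, which encodes TCF1, held 1 of score 909.27. Ikzf2, which encodes Helios, held 3 of scores 725.25, 586.21 and 513.93, and Syk, a receptor-proximal kinase, 1 of score 724.78. Rora held 4 with scores from 618.3 to 683.47. Maf, Blk, Il23r, Ccr6, Il7r and Etv5 had sequence that met the rule and held 0 such peaks.

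Notch targets known from T cells had 11 peaks in 6 of 18 genes, or 9.52 per Mb (4.75 to 17.04). The hosts were Lef1, Tcf7 and Runx1 with the values above, Ccnd3, Il2ra and Bcl2. Ccnd3, a cyclin of early T cell growth, held 2 peaks of scores 1042 and 937.17. Il2ra, which encodes CD25, held 2 of scores 665.59 and 639.41, and Bcl2, a survival gene, held 1 of score 630.32 that lay 133735 bp from a start. Notch1, Notch3, Igf1r, Deptor and Cdk6 were among the 12 that held none.

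The Notch pathway itself had 4 peaks in 3 of 28 genes, or 2.16 per Mb (0.590 to 5.54), an interval that includes the 1.83 of all such intron. Maml2 held 2 of scores 808.46 and 694.23, Maml3 held 1 of score 667.86, and Rbpj held 1 of score 664.07, 11449 bp from a start. These 3 genes encode parts of the nuclear complex, while Maml1, also of that complex, held none. Of the 44 genes listed only the 28 had sequence meeting the rule. Among these the receptor genes Notch1, Notch2 and Notch3 and the ligand gene Jag1 held no peak of this class. The other receptors and ligands on the list could not hold one. For the interferon-gamma gamma delta program, 2 of 15 genes held 3 peaks, those of Stat4 and 1 in Il12rb2, a subunit of the interleukin-12 receptor, of score 666.21. Its density of 6.61 per Mb had an interval of 1.36 to 19.3, too wide to place it against the whole.

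T cell receptor signalling genes had 18 peaks in 13 of 45 genes, or 4.23 per Mb (2.51 to 6.69). Prkcq, the kinase PKC theta, had the highest score of the list, 1886.8, in a peak 153 bp wide. Elmo1, a regulator of cell migration, had 1 of score 916.81, Fyb, an adaptor, 1 of score 722.53, and Nck2, another adaptor, 2 of scores 714.26 and 578.26. Skap1, an adaptor, had 1 of score 701.93. When peaks below the median score of the whole list were left out, this list's density relative to all such intron went from 2.31 to 1.33 times, while that of the T lineage list went from 4.92 to 5.10 times.

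Lists outside the T cell and Notch groups ranged widely in density. Lymphocyte migration and cytoskeleton genes had 3.15 per Mb (1.72 to 5.28), led by Ablim1 with a peak of score 1135.8 that contained 3 RBPJ cores and Arhgap26 with 1 of score 974.5. Chromatin regulators had 1.65 (0.664 to 3.40), led by Jarid2 with a score of 2194.9 and Kdm6a with 830.93. In the Jarid2 peak 50% of the 32-base strings occurred more than once in the genome. Of the markers of other cells that a thymic sample could hold, B cell genes had 3 peaks in 2 of 8 genes (25%, Ebf1 and Bank1), or 3.34 per Mb (0.688 to 9.76). Myeloid genes had 2 peaks in 2 of 8 genes (25%, Mrc1 and Clec9a), or 5.33 per Mb (0.646 to 19.3), a value above that of the T cell receptor list. Both shares stood above the 9.07% of all genes, and both density intervals included 1.83. Thymic stroma genes had peaks in 0 of 13 genes, with a density interval of 0 to 6.56 per Mb that also included 1.83. Whether other cells in the sample gave any peak was not tested.

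Long neuronal genes, many of which encode adhesion molecules and receptors of synapses, had the lowest density of the 12 lists with a peak. A distal intronic peak lay in 31 of 50 (62%), against the 9.07% of all genes. Per length they held fewer, 51 peaks in 51 Mb, or 1.0 per Mb (0.745 to 1.32), which was 0.546 times the density of all such intron. Nrxn3, a neurexin, had the highest score, 2432.3, in a peak 148 bp wide of which 87.8% was soft-masked. Cdh13, a cadherin, followed with 1917.2 in a peak 151 bp wide. By the share of genes with a peak this list ranked first of the 13, and by density twelfth.

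Scores of the peaks carried a regularity that bears on how far they rank regions. Over the 1093 distal intronic peaks the score ran from 203.43 to 3100 with a median of 710, and the width from 148 to 1297 bp with a median of 358. Exactly the same width and score as another nuclear peak were found for 634 of them (58.0%), against 51.6% of intronic peaks from 1 to 10 kb and 60.2% of intergenic peaks over 10 kb. A width of 414 bp with a score of 643.05, for instance, occurred 26 times, 7 of them distal intronic peaks, in Acoxl, Fndc3b, Nln, Plcl2, Prkaa1, Slc6a5 and Trappc9. Among the 634 the score fell as width rose (Spearman's rho −0.67, a description over peaks of 1 library), up to a highest score of 1917.2. None of the 36 peaks of 500 bp or more shared its values, and 14 of the 38 under 200 bp did.

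**Figure D3:**
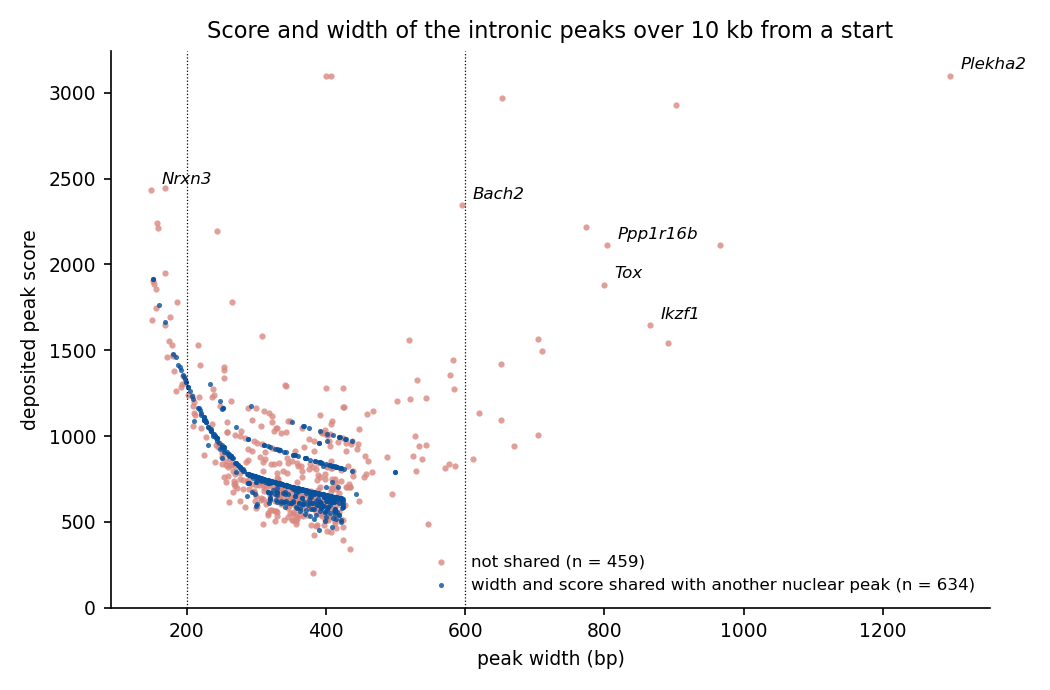
Deposited score against width in bp for each of the 1093 distal intronic peaks, with dotted lines at 200 and 600 bp. Blue points, the 634 peaks that share width and score with another nuclear peak, line up in narrow bands that fall with width, and named peaks such as Plekha2, Bach2 and Ikzf1 lie apart from them.

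No test of shared values between gene lists was made. They made up 3 of 4 peaks on the Notch pathway list (75%), 14 of 38 peaks on the T lineage list (36.8%), 7 of 18 on the T cell receptor list (38.9%) and 4 of 15 on the cytokine list (26.7%), against 35 of 51 on the neuronal list (68.6%). Without these peaks the density of the T lineage list was 7.41 times that of all such intron, that of the cytokine list 11.3 times, and that of the neuronal list 0.408 times. These ratios follow by arithmetic from the shares of peaks with shared values, so they restate those shares and add no separate result. In peaks with and without shared values, the RBPJ core was in 17% and 17.6% of central windows, ETS in 9.78% and 8.93%, and the E protein E-box in 21% and 21.1%. Gaps were wider for MYB (13.4% and 9.59%), IRF (7.89% and 5.01%), the CTCF core (6.78% and 10.7%) and AP-1 (2.84% and 5.23%), and none of these differences was tested. Deposited values do not show what gave several peaks the same pair of numbers, and the cause was not tested.

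High scores came from peaks at both ends of the width range. The 38 peaks under 200 bp had a median score of 1505 and the 17 of 600 bp or more a median of 1565, against 684 for the 568 peaks from 300 to 399 bp. Of the 50 highest scores, 27 belonged to peaks under 200 bp, 12 to peaks of 600 bp or more and 11 to those between. The narrow peaks had a median of 35.1% soft-masked sequence and the wide ones 15.9%, and 47.4% and 41.2% of them held a repeated 32-base string. Over all distal intronic peaks the median was 16.5% soft-masked, and 73.9% held no repeated string. The RBPJ core was in 6 of the 38 narrow peaks and in the centres of 2 of the 17 wide ones, an ETS string in 0 and 3, and an E protein E-box in 5 and 8. The narrow peaks offered fewer than 200 bp to scan. These width classes were drawn after the values had been seen, so the counts have no test.

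Among the 15 highest scores, 3 peaks stood at exactly 3100, in Filip1l, Chl1 and Plekha2. In the first pair 42.3% and 33.9% of 32-base strings were repeated in the genome. The Plekha2 peak was the widest at 1297 bp, and contained 2 copies of the longer RBPJ consensus. Plekha2, a phosphoinositide-binding adaptor of lymphocytes, held its peak 22432 bp from a start. Gramd3 followed with 2971.3 (653 bp) and St8sia1, a sialyltransferase gene, with 2929.4 (903 bp). Osbpl9, Ppp1r16b and Znrf1 had wide peaks of scores 2217.2, 2111.2 and 2110.9. Narrow peaks among the 15 were those of Cabcoco1 (2448.3, 168 bp), Nrxn3, Mcc (2242.1, 157 bp), Ptprg (2210.7, 159 bp) and Nyap2 (1952.5, 168 bp). The peaks of Bach2 and Jarid2 completed the 15, at 596 and 243 bp. Of the wide peaks further down, those of Tox and Ikzf1 were on the T lineage list.

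The distal intronic class was then compared with the 814 intronic peaks from 1 to 10 kb of a start and with the 2103 intergenic peaks over 10 kb from one, by two-sided Fisher's exact tests with Benjamini-Hochberg adjustment. Peaks at or above the median GC content of the list, 43.9%, were 41.2% of the distal intronic class (38.3 to 44.1, Wilson 95%), 53.3% of nearer intronic peaks and 35.0% of distal intergenic peaks. Both differences passed the exact test, with adjusted p = 1.2e-06 and 0.00272, although at the upper quartile of GC the second did not (adjusted p = 0.155). Shares at or above the median score were 48.3%, 46.8% and 48.6%, and neither difference passed (exact test, adjusted p = 0.591 and 0.881). The difference from nearer intronic peaks was 1.5 percentage points, with an interval of −3.03 to 6.02. Soft-masked shares also gave no difference that passed (exact test, adjusted p = 0.381 and 0.147). Wide peaks were fewer, 43.7% against 50.2% and 48.5% (exact test, adjusted p = 0.0143 and 0.0246), but each of these calls was lost under other settings, such as a distance limit of 20 kb (adjusted p = 0.135 for both).

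Neighbouring peaks were less frequent than for nearer intronic peaks, in a comparison that the rule itself affects. The distance looked at was 0.5 × 25 kb, the reach customarily used to join neighbouring enhancers into one group. Another nuclear peak lay within it for 149 distal intronic peaks (13.6%, 11.7 to 15.8), against 194 of the nearer intronic peaks (23.8%, 21.03 to 26.9). The difference was −10.2 percentage points (−13.8 to −6.66), with an odds ratio of 0.504 and, by the exact test, adjusted p = 2.53e-08. Peaks that neighbour each other are counted for each other, so they are not independent. The intervals and p-values of this paragraph make no allowance for that. Distal intergenic peaks stood at 14.4%, and that difference did not pass (exact test, adjusted p = 0.593). Nearer intronic peaks lie within 10 kb of a start by definition, so the reach takes in peaks at starts more readily for them. The rule can thus set part of the difference from nearer intronic peaks in advance, and how much was not tested. An alternative added after seeing the data counted only neighbours over 1 kb from any start. There the difference from nearer intronic peaks was −5.5 points (exact test, adjusted p = 0.00247).

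**Figure D4:**
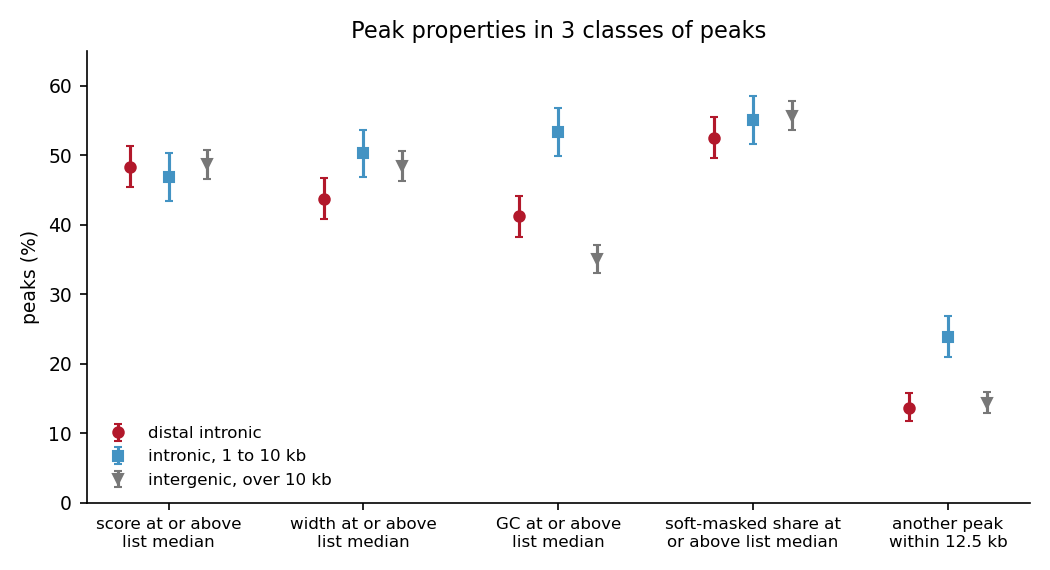
Percent of peaks at or above the median score, width, GC content and soft-masked share of the list, and percent with another nuclear peak within 0.5 × 25 kb, for 1093 distal intronic peaks, 814 intronic peaks from 1 to 10 kb and 2103 intergenic peaks over 10 kb. Bars are Wilson 95% intervals, which take peaks as independent. The share at or above the median GC content differs between the 3 classes. With peaks at starts counted, 23.8% of the nearer intronic peaks have a neighbour against 13.6% of the distal ones.

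Some distal intronic peaks did lie in groups. Chains of peaks in which each lay within the same distance of the next numbered 88 with at least 1 distal intronic peak, and 55 of these contained 2 or more, 116 in all. The 6 chains with 3 were in Cd247, Ppp1r16b, Ski, Cyth1, Atg10 and Runx1. In Ppp1r16b the 3 spanned 4.4 kb with scores from 614.96 to 2111.2, and in Runx1 7.73 kb with scores from 510.99 to 737.74. Cyth1, which encodes cytohesin-1, an exchange factor of leukocyte adhesion, had 3 within 12.7 kb, of scores from 630.21 to 1127.1.

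Motif strings in the central 200 bp did not separate the classes. Across 21 motifs, 0 of 21 (0%) differed from nearer intronic peaks and 0 of 21 (0%) from distal intergenic peaks after adjustment over the 42 Fisher's exact tests, and 2 of the 42 had an unadjusted p under 0.05. Both of those were against distal intergenic peaks. The E-box of E proteins, bHLH factors of lymphocyte development, was in 21% against 17% (exact p = 0.00523, adjusted p = 0.219), and the MYB strings AACTGNC and AACGGNC in 11.8% against 9.27% (exact p = 0.0262, adjusted p = 0.550).

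The RBPJ core was in 17.3% of distal intronic centres (15.2 to 19.6), 19.3% of nearer intronic and 15.7% of distal intergenic ones. As a background, every 200 bp tile of the intron that met the rule was scanned in the same way, and 16.9% of tiles held the core, a share inside the interval of the peaks. The longer consensus was in 3.29% of centres (2.39 to 4.53) and 2.79% of tiles. ETS strings were in 9.42% (7.83 to 11.3) against 6.79% of tiles, E protein E-boxes in 21% (18.7 to 23.6) against 17.8%, MYB strings in 11.8% (10.02 to 13.9) against 9.73%, and RUNX strings in 6.13% (4.86 to 7.71) against 4.97%. For the first 3 of these the tiles lay below the interval of the peaks, and for RUNX inside it. Of the 21 motifs 12 were more frequent in peaks than in tiles and 9 less. Among the 9 were TCF and LEF strings (8.33% against 9.11% of tiles), IRF (6.68% against 7.71%), NFAT (6.04% against 6.50%) and GATA (5.22% against 5.55%). For each of these the tiles lay inside the interval of the peaks. No test against tiles was made, and the intervals are not adjusted for the 21 motifs. Peaks had less soft-masked sequence than tiles, a mean of 21.5% against 29.9%, and a mean GC of 42.0% against 41.6%, and the part of this difference in the motif shares was not tested.

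**Figure D5:**
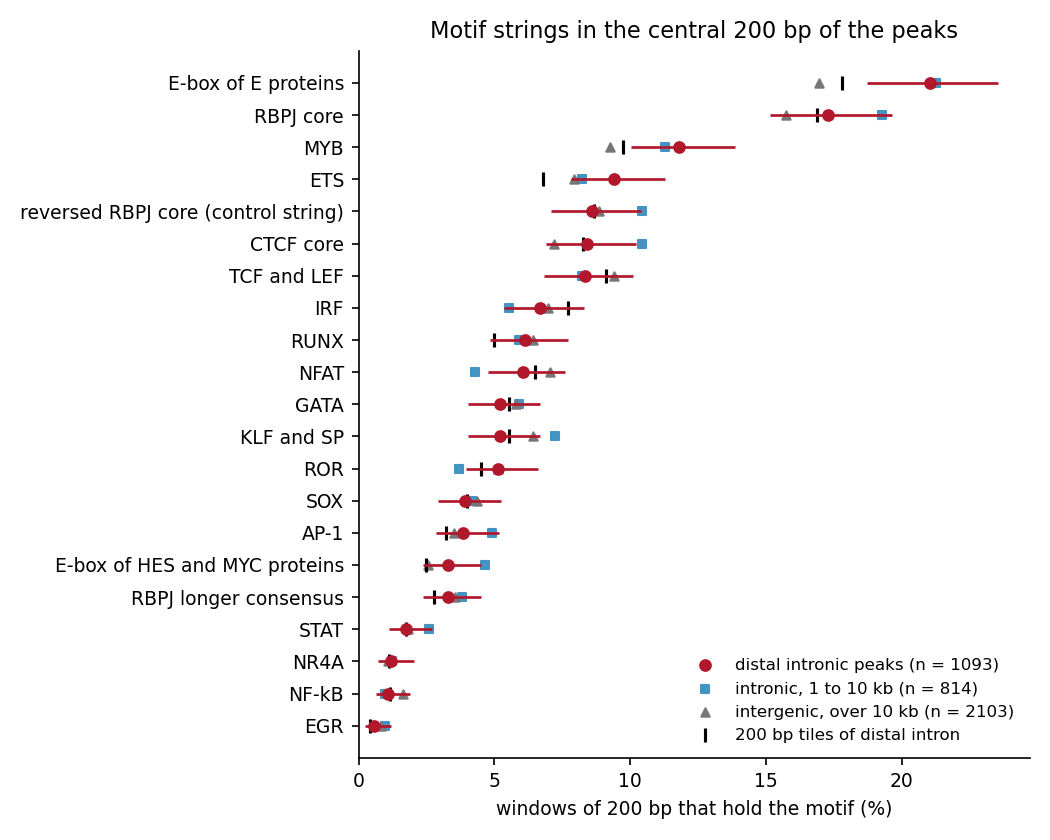
Percent of 200 bp windows that hold each of 21 motifs, for the centres of distal intronic peaks (red, with Wilson 95% intervals), intronic peaks from 1 to 10 kb (blue), intergenic peaks over 10 kb (grey), and all 200 bp tiles of the intron that met the rule (black ticks). The tick for the RBPJ core, 16.9%, lies within the red interval, and that for ETS, 6.79%, below it.

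Over whole peaks, an RBPJ core was absent from 777 distal intronic peaks, single in 265, double in 42 and present 3 or more times in 9, so that 28.9% had at least 1. That share differed by −4.26 percentage points from nearer intronic peaks and by 2.14 from distal intergenic ones. Neither difference passed (exact test, adjusted p = 0.459 and 0.573). Nr2c1, an orphan nuclear receptor gene, had the most, 4 cores in a peak of score 749.35. For the longer consensus over whole peaks, the differences from nearer intronic and distal intergenic peaks were −0.750 and 0.519 points. Neither passed (exact test, adjusted p = 0.763 and 0.807). This consensus was in 67 peaks. Beside Plekha2, St8sia1, Atrnl1, Lrrtm4, Atg10 and Bach2, the 10 highest scores among these were those of Gfod1 (1417.8), Myo16 (1358.2), Atg7, an autophagy gene (1009.7), and Sgce (962.78). The 7 lists on Notch and T cell genes had 86 peaks between them. Of these, beside the Bach2 peak, it lay in those of Bach1 (704.23), Cux1 (638.44), Smad3 (822.41) and Ski (726.49). Over all distal intronic peaks it was in 67 of 1093, and no difference of the lists from that share was tested.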

How the data were processed

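The authors deposited 1 list of peaks for the Notch1 library, which gives each peak a position, a score and a name beginning with MACS. Per the submitters' processing notes, Bowtie 1.0.0, SAMtools 0.1.18 and build mm10 were used. What the sources used here do not state is the peak caller's version and settings, any use of the input, the scale of the deposited score and the depth of reads. The score, the authors' own value, was therefore used mainly to describe and rank peaks. It was also cut at the median or upper quartile of the list, for the score comparison between classes and for some alternatives. The input library was not analysed here. Peak names and values belonged to the Notch1 library, and 0 columns of other samples were met.

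Peaks (at least 1 bp of overlap, coordinates from 1) were classed with GENCODE M21, and sequence, GC content, soft-masking and repeated 32-base strings were read from the RefSeq copy of GRCm38, in Python 3.11.15 with scipy 1.17.1. Intron numbers follow 1 principal or longest coding transcript per gene. Shares carry Wilson and densities exact Poisson 95% intervals, for counting error only. Calls used adjusted p under 0.05 over 8 property, 2 neighbour and 42 motif tests. Scripts were tested on simulated data.

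The members, the 13 gene lists (586 entries, 2 unmatched), the motifs and the alternatives were chosen with earlier results of these data known. Named genes were hosts of the 15 highest scores, the 10 genes with most peaks (ties ordered by the highest score, gene models with 5 or more other genes inside left out), up to 8 hosts by score on each of the T cell and Notch lists, 2 on each other list, the 10 highest scores with the longer RBPJ consensus, and the peaks next to 10 kb. Other names (genes without a peak or tied at 4 peaks, Ets1, Rora, Runx1, Ikzf2 and Cyth1 where they fall outside this, and wide, repeated-value or motif-rich peaks) were singled out after their values were seen. Some genes that the rule takes are not reported here.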

Additional observations from a re-analysis of the deposited data

How the results depend on the processing

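Under other settings, 66 tested differences between classes and 76 motif differences kept their direction and their side of the threshold. A further 84 values with no test (counts of peaks and of motifs that passed, percents of genes and list densities) stayed within 1.5 times a main count or within the main interval. These totals overstate how much was tried. Asking for peaks wholly inside the gene body again took 1093 peaks and repeated each main value. The counts of motifs that passed were 0 in every setting. The number of distal intronic peaks was 528 at or above the median score and 630 with under 20% soft-masked sequence. The percent of genes with 1 was 8.28 at a limit of 5 kb, 10.6 at 20 kb, 4.89 at or above the median score, 8.40 with the starts of all annotated genes and 5.66 with under 20% soft-masked. Alternatives for list densities were added after seeing the data: without peaks of shared width and score the ratio to all intron was 7.41 for the T lineage and 11.3 for the cytokine list, and at or above the median score it was 1.33 for the T cell receptor list.

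Differences are in percentage points. The lower share of wide peaks no longer passed against nearer intronic peaks at 20 kb (−4.28), with starts of coding transcripts (−2.59), of all genes (−4.99) or under 20% soft-masked (−5.50). Against distal intergenic peaks it no longer passed at 20 kb (−4.17), at or above the median score (−4.49), with starts of coding transcripts (−2.47), of all genes (−3.18) or under 20% soft-masked (−4.43). The GC difference from them was 2.28 at the upper quartile. Differences that had not passed changed sign: score against nearer intronic peaks at the upper quartile (−0.0374), soft-masked share under 20% soft-masked (0.0515), and neighbours against distal intergenic peaks at 5 kb (0.0307), with starts of coding transcripts (1.15), of all genes (0.996) and within 25 kb (0.322).

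Motif differences from nearer intronic peaks changed sign, none passing, for the RBPJ core at 5 kb (0.341), the longer consensus at 20 kb (0.081), the E-box in the central 100 bp (2.17) and at or above the median score (1.16), MYB at 20 kb (−2.16), with coding starts (−0.251), under 20% soft-masked (−0.339) and over whole peaks (−1.18), and ETS at 5 kb (−0.313), 20 kb (−0.563) and over whole peaks (−1.18). The longer consensus against distal intergenic peaks did so at 5 kb (0.022), under 20% soft-masked (0.159) and over whole peaks (0.519). The cause was not tested. The score comparison could not be made at or above the median score, where every peak passes. No paired analysis was possible because the Notch1 group has 1 library. Without replicates or read depth, neither the precision of a score nor the reproducibility of a peak can be stated.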
